A study of Mus musculus with 9 samples.

Results

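The junction genes of MyC-CaP cells, a mouse prostate cancer line that arose from a tumor driven by MYC, were followed after addition of neuregulin 1 (NRG1), a ligand of the receptor HER3. Members were taken by gene symbol. The set took the cadherins (Cdh), desmogleins (Dsg), desmocollins (Dsc), plakophilins (Pkp), claudins (Cldn), tight junction proteins (Tjp), MARVEL-domain proteins (Marveld) and α-, β- and δ-catenins (Ctnna, Ctnnb, Ctnnd), with Dsp, Jup, Ocln, F11r and Cgn. It held 50 of the 15552 genes in the table.

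All 9 libraries came from MyC-CaP cells that were first kept for 6 to 12 h in a medium with neither serum nor calcium, and recombinant NRG1 was then added at 15 ng/mL. The times were 0, 12 and 24 h after the addition, with 3 biological replicates each. The labels call the 0 h libraries NRG1-treated as well, at time 0. No library kept in the medium alone to 12 or 24 h was analysed here. Time with NRG1, time without serum or calcium and time in culture therefore cannot be told apart. All values describe 1 cell line, and nothing in the labels says which length of starvation a library had. The labels call the replicates biological but name no separate cultures, and the study's methods describe cells plated in triplicate wells. The p-values therefore measure only the spread between these libraries, which may be technical.

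Adherens junctions are built from classical cadherins, which bind the cadherins of the next cell through calcium-dependent extracellular domains and hold β- and δ-catenin on the inside. Through β-catenin, α-catenin ties the complex to actin. Desmosomes use desmogleins and desmocollins in the same way, with plakoglobin, plakophilins and desmoplakin as the plaque that reaches the keratin filaments. Tight junctions seal the space between cells with claudins, occludin and junctional adhesion molecules, which are gathered by the scaffold proteins of the Tjp family and by cingulin. In the prostate, luminal epithelial cells carry all of these junctions.

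The libraries held 28467089 to 39239760 counts, so 3 counts in a library, taken as the floor, corresponded to 0.0765 to 0.105 counts per 1000000 (CPM). After a filter on low counts, 11373 genes were tested. Every pair of replicates differed by more than counting noise. Of the markers checked, Foxa1 (281 CPM at 0 h), Krt7 (102 CPM) and Krt19 (98.7 CPM) were abundant. Epcam was at 0 counts in all libraries except replicate 2 at 24 h, which had 3, Krt18 was at 0.253 CPM and the epithelial splicing factor Esrp1 was at or below the floor, while the mesenchymal intermediate filament gene Vim was at 247 CPM. Summed endothelial markers reached at most 0.389 CPM and summed leukocyte markers at most 1.11 CPM in a library. In a bulk sample, fewer cells that express a gene and less RNA per cell cannot be told apart.

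Of the 50 junction genes, 23 passed the filter and 27 did not. All 4 catenins passed, as did 8 of 17 claudins, 3 of 5 desmosomal plaque genes and 3 of the 5 genes of the group of MARVEL proteins and F11r. By contrast, 1 of 9 classical cadherins passed, and none of the 4 other cadherins or of the 2 desmosomal cadherins did. No gene below the filter had more than 11 counts in any library, or more than 0.329 CPM. Other members of these families, such as Dsc2, Dsc3 and Dsg3, were not analysed here.

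To assess whether the tested junction genes moved with time, each pair of times was compared with edgeR's quasi-likelihood F-test, fitted on all tested genes with Benjamini-Hochberg adjustment, and a gene passed at an adjusted p of at most 0.05. At 12 h against 0 h, 6 of 23 passed, 5 higher and 1 lower. This was a share of 26.1%, against 25.5% of all genes (13.6% higher and 11.9% lower). At 24 h against 0 h, 6 of 23 passed, all higher, against 17.4% of all genes (9.67% higher and 7.76% lower). No member passed as lower at 24 h, where 1 had an unadjusted p under 0.05 and DESeq2 called 0. Both comparisons used the same 0 h libraries. At 24 h against 12 h, 2 of 23 passed, 1 higher and 1 lower, against 5.03% of all genes (1.97% higher and 3.06% lower). The balance over all genes depended on the scaling. From 12 to 24 h it was 224 higher and 348 lower with TMM, edgeR's scaling used here, but 279 and 265 with total counts, and at 12 h against 0 h it was 1547 and 1349 against 1381 and 1488. Taking the 3 times at once, 8 of 23 differed, against 27.4% of all genes.

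Changes were small. A fold change of at least 1.5 in addition to the adjusted p was reached by 1 member at 12 h and the same gene, Cldn2, at 24 h, against 2.29% and 2.27% of all genes. Between 12 and 24 h no member reached it in edgeR, at an unadjusted p under 0.05, or in DESeq2, against 0.29% of all genes. The median log2 fold change of the 23 was 0.07 at 12 h and 0.02 at 24 h, against -0.003 and -0.006 for all genes. Their log2 fold change was above 0 for 15 genes at 12 h and 16 at 24 h, against 49.1% and 47.9% of all genes. Values of the 2 times compared did not overlap for 6 members that were higher and 3 that were lower at 12 h against 0 h, where 19.9% and 18.5% of all genes did so. At 24 h against 0 h the same counts, 6 and 3, stood against 17.6% and 17.9%, and at 24 h against 12 h 3 and 3 stood against 11.4% and 13.6%.

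The counts depended on single libraries. The 24 h count fell to 3 without replicate 2 or replicate 3 at 0 h and to 2 when replicate 3 at 24 h was left out. The count between 12 and 24 h fell to 0 when the left-out library was 12 h replicate 1 or 24 h replicate 2 or 3, and to 1 when it was 12 h replicate 2 or 24 h replicate 1. The count over the 3 times fell to 5 without replicate 2 or replicate 3 at 0 h.

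**Figure D1:**
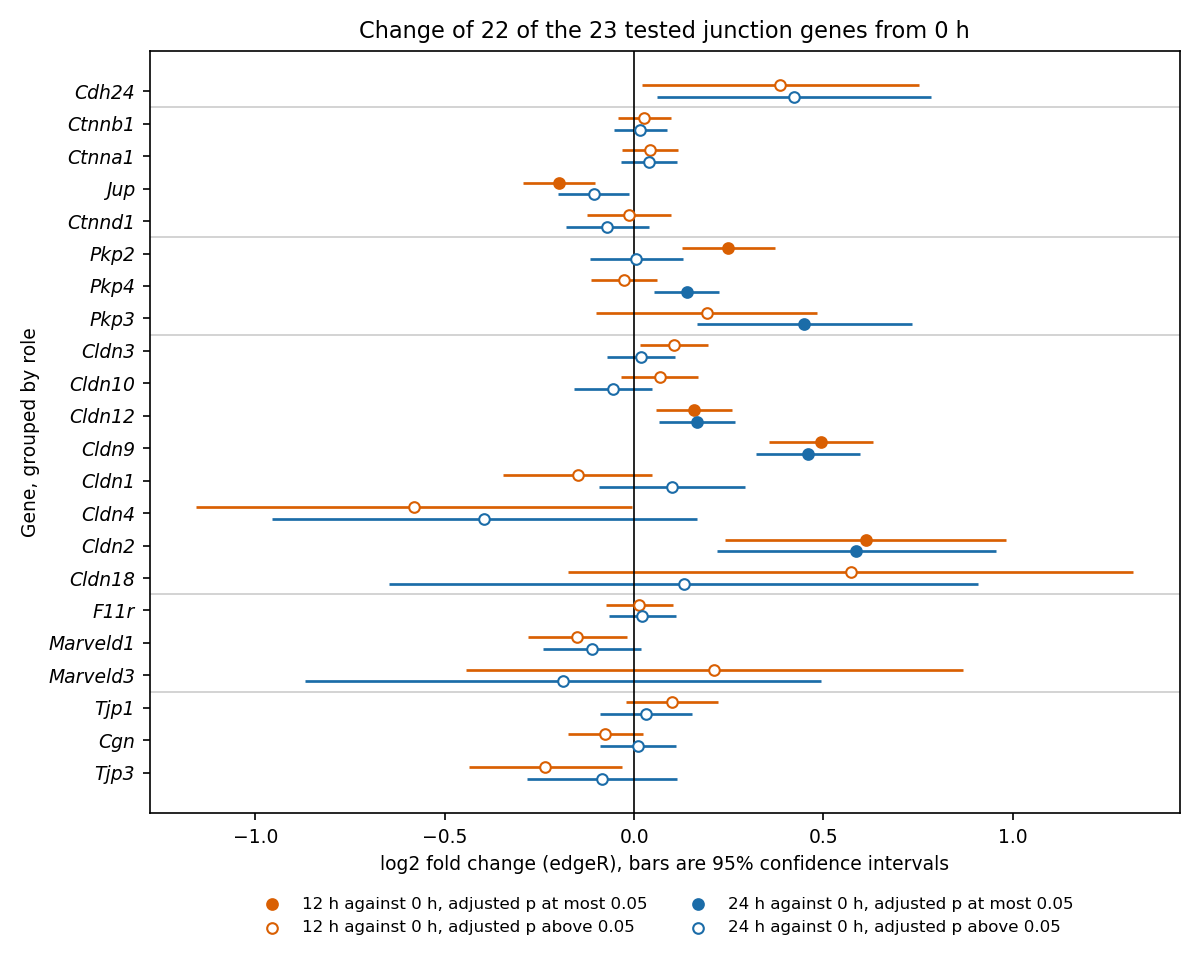
Log2 fold change from 0 h (horizontal axis, edgeR) of 22 of the 23 tested junction genes at 12 h (orange) and 24 h (blue), grouped by role, with bars for 95% confidence intervals and filled points for an adjusted p of at most 0.05. Cldn9 lies farthest from 0 relative to its interval, at 0.49 and 0.46, and Jup is the filled point on the left, at -0.20 and 12 h.

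To compare levels between genes, CPM, scaled between libraries, were divided by the summed exon length of each gene in kilobases. At 0 h Cldn3, a claudin that seals the space between cells, stood first at 440.4 ± 27.3 CPM per kilobase (SD, n = 3). It was followed by Ctnnb1 at 77.1 ± 0.976, Cldn10 at 74.5 ± 6.06, Ctnna1 at 56.4 ± 1.44, F11r at 38.8 ± 1.00, Tjp1 at 27.2 ± 0.948 and Jup at 25.1 ± 1.58 CPM per kilobase. The lowest tested members were Cldn2 at 0.717 ± 0.128, Marveld3 at 0.234 ± 0.0554 and Cldn18 at 0.131 ± 0.0164 CPM per kilobase. Ranges of neighbours in this order overlapped at 0 h in 9 of 22 pairs, among them Ctnnb1 with Cldn10, Tjp1 with Jup, Pkp2 with Cgn and Cgn with Cldn12.

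**Figure D2:**
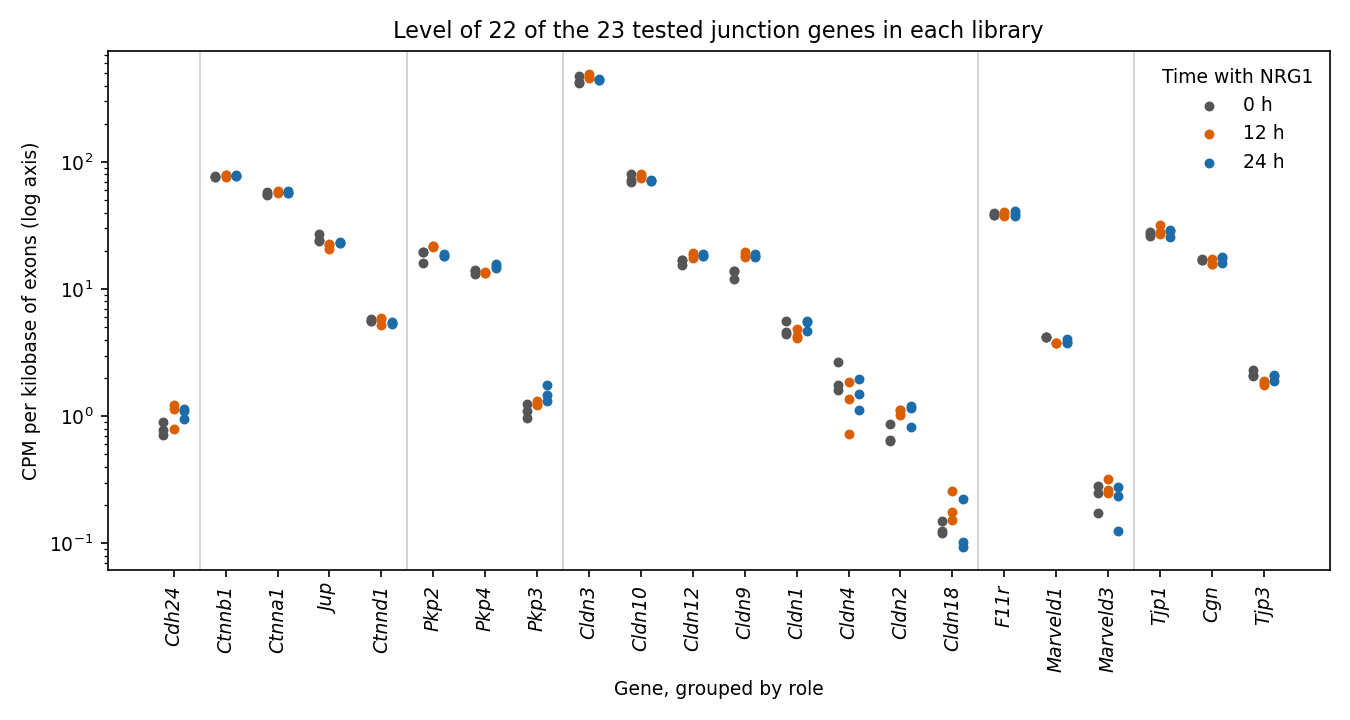
Level of 22 of the 23 tested junction genes in CPM per kilobase of exons on a log axis, with each of the 9 libraries as a point, coloured by time and grouped by role. Cldn3 stands above all other genes shown at every time, and Cldn18 and Marveld3 stay below 1 in all 9 libraries.

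Classical cadherins were examined first, as the calcium-binding core of adherens junctions. Cdh1 (ENSMUSG00000000303.12, chr8:106603351-106670246, plus strand, GRCm38), which encodes E-cadherin, had 4, 4 and 0 counts in the 0 h libraries, 0, 1 and 0 at 12 h and 1, 2 and 2 at 24 h. The most was 0.142 CPM, and in 7 of the 9 libraries Cdh1 was at or below the floor of 3 counts. Cdh3, the P-cadherin gene 46053 bp upstream of it on the same strand, had 12 counts over the 9 libraries, at most 3 in a library. Cdh2, which encodes N-cadherin, had 1 count in all. In most libraries none of these 3 cadherins was detectable above the floor at this depth, and no change with time could be measured.

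Cdh24, a type II classical cadherin, was the only tested member of this group. It was at 2.7, 3.16 and 2.47 CPM at 0 h, at 2.77, 3.99 and 4.24 CPM at 12 h and at 3.86, 3.32 and 4.0 CPM at 24 h. Its 24 h values lay above all 0 h values, and its 12 h values overlapped them. The 12 h log2 fold change was 0.39 ± 0.17 (SE, adjusted p = 0.114) and the 24 h value 0.42 ± 0.17 (adjusted p = 0.102), so Cdh24 did not pass. The other 5 classical cadherins below the filter, Cdh4, Cdh5 (the vascular form), Cdh7, Cdh15 and Cdh22, held 1 to 5 counts each over the 9 libraries.

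The catenins, which need a cadherin partner at the membrane, were by contrast abundant. Ctnnb1, encoding β-catenin, was at 397, 397 and 406 CPM at 0 h, at 399, 411 and 413 CPM at 12 h and at 399.9, 406 and 408 CPM at 24 h. Ctnna1, encoding α-catenin, lay between 353 and 381 CPM in the 9 libraries. For both genes the ranges of the 3 times overlapped. The log2 fold change of Ctnnb1 was 0.027 at 12 h (95% interval -0.042 to 0.096) and 0.017 at 24 h (-0.052 to 0.086), and that of Ctnna1 was 0.042 at 12 h (-0.031 to 0.12) and 0.039 at 24 h (-0.034 to 0.11), with none of the 4 passing. Of the bases of the Ctnnb1 exons, 14.6% overlap Ulk4 on the opposite strand, and whether reads were counted by strand was not given in the sources used here.

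Ctnnd1, encoding p120 catenin, which keeps cadherins at the cell surface, averaged 41.6 ± 1.06 CPM (SD, n = 3) in the 0 h libraries, 41.2 ± 2.74 CPM after 12 h and 39.6 ± 0.816 CPM after 24 h. It did not pass in any comparison, and its interval at 24 h ran from -0.18 to 0.04 on the log2 scale. In the annotation, 61.2% of its exonic bases overlap the predicted gene Gm28635 on the same strand, so counts may have been lost and its level is uncertain.

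Jup was the catenin that changed. It encodes plakoglobin (γ-catenin), the member of the family shared by adherens junctions and desmosomes (ENSMUSG00000001552.14), at chr11:100368958-100397763 on the minus strand. Jup was at 173, 155 and 156 CPM at 0 h, at 134, 143 and 145 CPM at 12 h and at 148, 152 and 149 CPM at 24 h. All 12 h values lay below all 0 h values and below all 24 h values. Jup fell by 0.20 on the log2 scale at 12 h (SE 0.04, adjusted p = 0.00367), and this held without any single library, with adjusted p-values of at most 0.026 over the 16 alternatives. At 24 h the value was -0.11 ± 0.04 (adjusted p = 0.115) and from 12 to 24 h 0.09 ± 0.04 (adjusted p = 0.267), so neither passed.

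The desmosomal cadherins and desmoplakin were near the floor in most libraries, and 1 library stood apart for such genes. Genes below the filter held 0.0343% of the counts of replicate 2 at 24 h, against 0.0165% to 0.0203% in the other 8 libraries. Of the 27 untested junction genes, 8 had their highest count there, against 14.9% of all 4179 genes below the filter. Dsg2, encoding desmoglein 2, had 6 counts in that library and 0 in the other 8. Dsp, encoding desmoplakin, which anchors keratins, had 1, 0 and 0 counts at 0 h, 0, 1 and 3 at 12 h and 1, 5 and 4 at 24 h. Dsc1 had 2 counts, both in replicate 2 at 0 h, and Pkp1, a plakophilin of stratified epithelia, had 45 over all libraries, at most 11 in one.

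**Figure D3:**
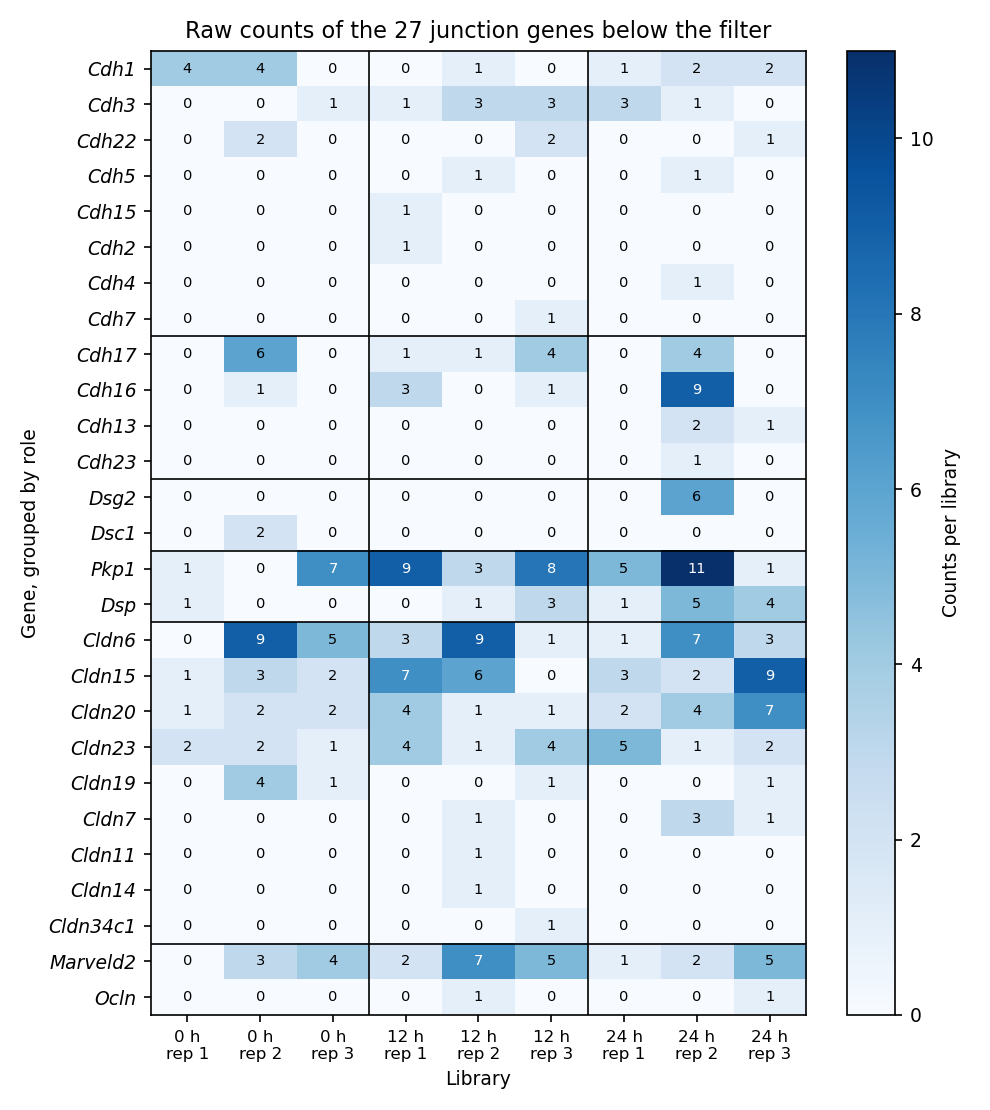
Raw counts of the 27 junction genes below the filter in each of the 9 libraries, grouped by role, with darker cells for higher counts. The highest cell is 11, for Pkp1 in replicate 2 at 24 h, and the 6 counts of Dsg2 all stand in that library.

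Pkp2, Pkp3 and Pkp4 were expressed, and each passed in at least 1 comparison. Pkp2 (ENSMUSG00000041957.15, chr16:16213318-16272712, plus strand) encodes the plakophilin that links desmoplakin to the desmosomal cadherins in simple epithelia. It was at 104, 105 and 85.8 CPM at 0 h, at 118, 115 and 118 CPM at 12 h and at 97.0, 101 and 98.3 CPM at 24 h. The 12 h values stood above those of both other times. Pkp2 rose at 12 h by 0.25 ± 0.06 on the log2 scale (adjusted p = 0.00471) and fell by 0.24 from 12 to 24 h (SE 0.06, adjusted p = 0.0227).
The rise at 12 h was past the threshold under all 16 alternatives (adjusted p at most 0.0189), and the fall from 12 to 24 h was not without replicate 1 at 12 h (adjusted p = 0.0914) or without replicate 1, 2 or 3 at 24 h (0.0993, 0.061 and 0.0961), in a range from 1.24e-05 to 0.0993.

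Pkp4 (ENSMUSG00000026991.20, chr2:59160850-59355208, plus strand), an armadillo protein close to p120 catenin that is found at adherens junctions and desmosomes, followed a later course. It was at 75.7, 79.7 and 80.1 CPM at 0 h, at 76.9, 77.1 and 77.4 CPM at 12 h and at 83.1, 89.8 and 86.5 CPM at 24 h. The 24 h values lay above all the others. Pkp4 rose by 0.14 ± 0.04 against 0 h (adjusted p = 0.027) and by 0.17 ± 0.04 against 12 h (adjusted p = 0.0285). Against 0 h it did not pass without replicate 1 at 0 h (adjusted p = 0.0992) or replicates 2 or 3 at 24 h (0.117 and 0.0708), and against 12 h without replicates 1 or 2 at 12 h (0.1 and 0.0564) or 2 or 3 at 24 h (0.147 and 0.0767), with ranges of 0.0148 to 0.117 and 0.0121 to 0.147 over the alternatives.

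Pkp3 (ENSMUSG00000054065.12, chr7:141078218-141090510, plus strand), a plakophilin that binds most desmosomal cadherins, was at 4.54, 4.0 and 3.51 CPM at 0 h, at 4.78, 4.5 and 4.40 CPM at 12 h and at 6.39, 4.79 and 5.27 CPM at 24 h. Its 24 h values lay above all 0 h values, with replicate 1 the highest. Pkp3 rose by 0.45 ± 0.13 at 24 h (adjusted p = 0.0279). It did not pass without replicates 2 or 3 at 0 h (adjusted p = 0.0669 and 0.111) or 1 or 3 at 24 h (0.131 and 0.0562), over a range of 0.00895 to 0.131. At 12 h its value was 0.19 ± 0.14 (adjusted p = 0.34).

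Among the claudins, 1 gene supplied most of the signal. Cldn3 (ENSMUSG00000070473.4, chr5:134986214-134987472, plus strand) made up 79.7% ± 0.514 of the summed claudin CPM per kilobase in the 0 h libraries (SD, n = 3), 79.5% ± 0.71 after 12 h and 79.2% ± 0.111 after 24 h. Cldn10, whose protein forms ion-selective pores, followed with 13.5% ± 0.457, 13.1% ± 0.647 and 12.7% ± 0.283. These shares differed between times by less than 1 percentage point. Cldn9 held 2.41% ± 0.191 in the 0 h libraries, 3.13% ± 0.132 after 12 h and 3.24% ± 0.0547 after 24 h. How reads matching several claudins were treated was not given in the sources used here.

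Cldn3 and its neighbour Cldn4 (ENSMUSG00000047501.3, chr5:134945119-134946934, minus strand), both counted among the sealing claudins, lie 39279 bp apart and point away from each other. Cldn3 was at 594, 529 and 541 CPM at 0 h, at 592, 617 and 580.4 CPM at 12 h and at 559, 556 and 569 CPM at 24 h. Cldn4 was at 4.86, 3.21 and 2.93 CPM at 0 h, at 3.38, 2.48 and 1.31 CPM at 12 h and at 3.54, 2.03 and 2.73 CPM at 24 h. The pair thus stood at 440.4 and 2.02 CPM per kilobase at 0 h, and the times overlapped for both genes when 12 or 24 h was set against 0 h.

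Neither passed. The log2 fold change of Cldn3 was 0.11 ± 0.04 at 12 h (adjusted p = 0.0767), and it passed without replicate 1 at 0 h (adjusted p = 0.00522), without replicate 3 at 12 h (0.0349) or with no filter on low counts (0.0448), over a range of 0.00522 to 0.263. That of Cldn4 was -0.58 ± 0.27 at 12 h (adjusted p = 0.132) and -0.40 ± 0.27 at 24 h (adjusted p = 0.345). Leaving out 1 library moved the 12 h value of Cldn4 between -0.93 and -0.29, and it was -0.35 without replicate 1 at 0 h (adjusted p = 0.429) and -0.29 without replicate 3 at 12 h (0.405). It passed without replicate 1 at 12 h (-0.93, adjusted p = 0.0344), with the replicate number as a block (0.0247) and with no filter (0.00482).

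Cldn9 (ENSMUSG00000066720.7) had the smallest adjusted p of the set at both times. It lies at chr17:23682584-23684026 on the minus strand, 137 bp from the end of Cldn6 on the plus strand. Cldn9 was at 20.0, 20.1 and 17.4 CPM at 0 h, at 28.2, 26.6 and 26 CPM at 12 h and at 25.8, 26.2 and 27.0 CPM at 24 h. All 6 later values lay above all 0 h values, and the 12 and 24 h values overlapped. Cldn9 rose by 0.49 ± 0.06 at 12 h (adjusted p = 3.66e-05) and by 0.46 ± 0.06 at 24 h (adjusted p = 9.02e-05). Both calls held under all 16 alternatives, with adjusted p-values of at most 0.000409 and 0.0011. From 12 to 24 h the value was -0.033 with an interval of -0.17 to 0.10. The adjacent Cldn6 had 38 counts over the 9 libraries, 14 at 0 h, 13 at 12 h and 11 at 24 h.

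Cldn2 and Cldn12 also rose at both times. Cldn2 (ENSMUSG00000047230.6, chrX:139800828-139811386, plus strand), whose protein forms a pore for cations and water, was at 2.87, 2.16 and 2.12 CPM at 0 h, at 3.72, 3.70 and 3.39 CPM at 12 h and at 3.86, 2.72 and 4.02 CPM at 24 h. All 12 h values lay above those at 0 h, but replicate 2 at 24 h lay below replicate 1 at 0 h. Cldn2 rose 1.53-fold at 12 h (log2 0.61 ± 0.17, adjusted p = 0.0164) and 1.5-fold at 24 h (log2 0.59 ± 0.17, adjusted p = 0.0272), the latter just at the fold threshold, below which DESeq2 placed it. It did not pass at 12 h without replicates 2 or 3 at 0 h (adjusted p = 0.0589 and 0.0587), nor at 24 h without these (0.0932 and 0.0923) or without replicates 1 or 3 at 24 h (0.087 and 0.132). The ranges were 0.00194 to 0.0589 and 0.00415 to 0.132.

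Cldn12 (ENSMUSG00000046798.14, chr5:5489537-5514958, minus strand), a claudin linked to paracellular calcium transport, was at 65.4, 71.6 and 72.1 CPM at 0 h, at 73.9, 78.8 and 81.0 CPM at 12 h and at 77.3, 77.4 and 80.2 CPM at 24 h. Later values all lay above those at 0 h. Cldn12 rose by 0.16 ± 0.05 at 12 h (adjusted p = 0.0212) and by 0.17 ± 0.05 at 24 h (adjusted p = 0.022). It did not pass without replicate 1 at 0 h (adjusted p = 0.0972 at 12 h and 0.0972 at 24 h), without replicate 2 at 12 h (0.0614) or without replicate 3 at 24 h (0.0867), and the lowest values over the alternatives were 0.00673 and 0.00512.

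The remaining claudins did not pass. Cldn10 lay between 179.9 and 210.4 CPM in the 9 libraries and Cldn1, a broadly expressed barrier claudin, between 20.0 and 27.4 CPM. Cldn1 had its largest difference from 12 to 24 h, 0.25 ± 0.09 (adjusted p = 0.132). Cldn18 was under 1.2 CPM in every library. Cldn7, an epithelial claudin, had 5 counts over the 9 libraries, and the other claudins below the filter, apart from Cldn6, had between 1 count (Cldn11, Cldn14 and Cldn34c1) and 33 counts (Cldn15).

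**Figure D4:**
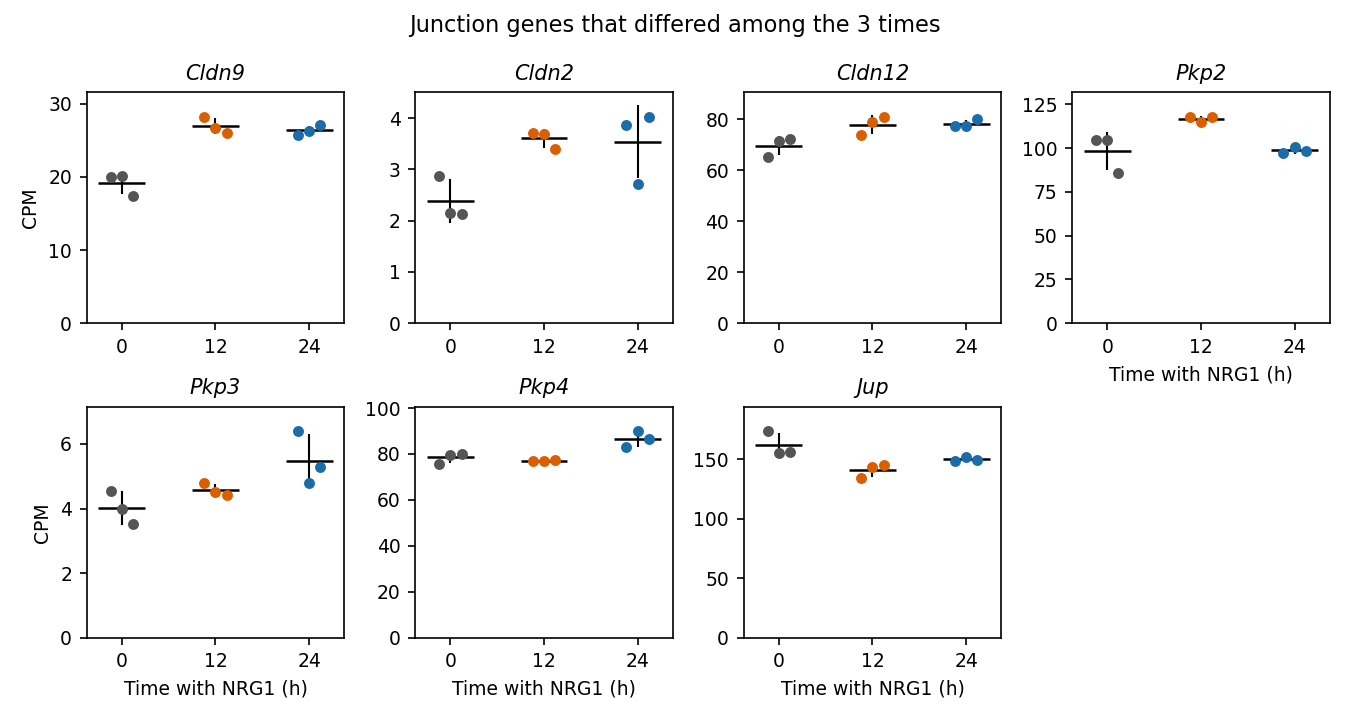
CPM (vertical axes, from 0) against hours with NRG1 for 7 of the 8 junction genes that differed among the 3 times, with each of the 9 libraries as a point, a long bar for the mean and a vertical bar for the SD of 3 libraries. Cldn9 goes from 17.4 to 20.1 CPM at 0 h to at least 25.8 CPM later, while Jup is lowest and Pkp2 highest at 12 h.

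To show the sequence upstream of some of these genes, the 250 bases before the RefSeq start (GRCm38.p6) are printed 5′ to 3′ on the strand of the gene. They are given for the neighbours Cldn3 and Cldn4, which differ in level, and for Cldn2 and Cldn12, which rose at both times. Jup, which fell at 12 h, and Ocln, which was near 0, are also shown. No window was available for Cldn9, Pkp2, Pkp3 or Cdh1, so none is printed for them. Capitals mark matches, on either strand, to 4 motifs: the E-box CAGGTG bound by cadherin repressors of the Snail and Zeb families, the GC box GGGCGG, the AP-1 site TGANTCA and the TATA box TATAAA. No base fell in 2 motifs. Windows lie at chr5:134985964-134986213 (plus) for Cldn3, chr5:134946935-134947184 (minus) for Cldn4, chrX:139800558-139800807 (plus) for Cldn2, chr5:5514977-5515226 (minus) for Cldn12, chr11:100397791-100398040 (minus) for Jup and chr13:100552719-100552968 (minus) for Ocln.
Cldn3: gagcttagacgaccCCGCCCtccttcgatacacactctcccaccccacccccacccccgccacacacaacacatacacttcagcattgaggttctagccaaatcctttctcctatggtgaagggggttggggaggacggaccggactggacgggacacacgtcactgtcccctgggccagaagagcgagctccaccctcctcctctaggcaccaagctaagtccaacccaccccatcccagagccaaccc
Cldn4: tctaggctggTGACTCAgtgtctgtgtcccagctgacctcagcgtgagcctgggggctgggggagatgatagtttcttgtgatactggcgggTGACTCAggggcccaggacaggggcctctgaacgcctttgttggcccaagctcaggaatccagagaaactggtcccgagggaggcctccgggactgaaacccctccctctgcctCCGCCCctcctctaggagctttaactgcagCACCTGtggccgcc
Cldn2: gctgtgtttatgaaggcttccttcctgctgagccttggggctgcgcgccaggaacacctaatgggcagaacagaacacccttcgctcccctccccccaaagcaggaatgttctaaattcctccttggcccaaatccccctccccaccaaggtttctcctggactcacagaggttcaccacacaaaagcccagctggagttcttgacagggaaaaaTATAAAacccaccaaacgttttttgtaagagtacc
Cldn12: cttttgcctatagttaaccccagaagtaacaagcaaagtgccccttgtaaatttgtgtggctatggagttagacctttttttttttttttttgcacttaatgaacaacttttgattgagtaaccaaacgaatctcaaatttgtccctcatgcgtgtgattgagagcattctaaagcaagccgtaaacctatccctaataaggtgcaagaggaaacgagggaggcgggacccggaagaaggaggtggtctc
Jup: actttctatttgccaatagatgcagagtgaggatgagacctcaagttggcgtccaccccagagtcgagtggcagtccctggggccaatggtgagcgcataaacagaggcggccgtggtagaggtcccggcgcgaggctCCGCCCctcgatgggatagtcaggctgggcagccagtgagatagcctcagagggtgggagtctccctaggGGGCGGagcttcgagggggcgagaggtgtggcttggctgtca
Ocln: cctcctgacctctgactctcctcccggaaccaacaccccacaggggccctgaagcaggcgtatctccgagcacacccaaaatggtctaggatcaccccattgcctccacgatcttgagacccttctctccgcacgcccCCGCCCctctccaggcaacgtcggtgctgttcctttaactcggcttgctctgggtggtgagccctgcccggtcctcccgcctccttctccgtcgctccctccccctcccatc

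The Cldn4 window held matches to 3 of the 4 motifs: AP-1 sites beginning at positions -240 and -158 from the start, a GC box at -44 and an E-box at -14. The Cldn3 window held only a GC box, at -236. Jup had 2 GC boxes, Ocln 1 and Cldn2 a TATA box at -35, and the Cldn12 window had none of the 4. Among all 32851 RefSeq windows of this length, 17.2% held the E-box, 32.7% the GC box, 6.75% the AP-1 site and 12.4% the TATA box. Windows were used for 32 of the 50 members, each with the start farthest upstream for its gene. No such choice was made among the 32851 windows, so the sets are not directly comparable. The median number of CpG dinucleotides was 13 in the 17 windows of tested members, 9 in the 15 of untested ones and 6 in all windows.

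Of the transmembrane partners of the claudins, F11r was the most abundant. F11r, encoding junctional adhesion molecule A, was at 106, 102 and 101 CPM at 0 h and between 100.0 and 109 CPM in the later libraries. Its log2 fold change was 0.013 at 12 h (95% interval -0.075 to 0.10) and 0.021 at 24 h (-0.067 to 0.11), and neither passed. Ocln, encoding occludin, had 2 counts over the 9 libraries, 1 at 12 h and 1 at 24 h. Marveld2, encoding tricellulin, which seals corners where 3 cells meet and lies 43238 bp from Ocln, had 29.

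Marveld1 and Marveld3, further MARVEL-domain genes, did not pass. Marveld1 averaged 18.1 ± 0.0955 CPM (SD, n = 3) in the 0 h libraries, 16.3 ± 0.0626 CPM after 12 h and 16.7 ± 0.542 CPM after 24 h. Every later value lay below every 0 h value, and the adjusted p was 0.0866 at 12 h and 0.247 at 24 h. Marveld3 was under 1.1 CPM in every library.

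Among the scaffold genes of the tight junction plaque, Tjp1, Cgn and Tjp3 were expressed at all times. Tjp1, encoding ZO-1, was at 211, 221 and 206 CPM at 0 h, at 219.7, 214 and 251 CPM at 12 h and at 200.2, 227 and 225 CPM at 24 h. The times overlapped, and the log2 fold change was 0.10 (95% interval -0.02 to 0.22) at 12 h and 0.03 (-0.09 to 0.15) at 24 h. Cgn, encoding cingulin, which ties the plaque to myosin, lay between 94.4 and 108 CPM with values of -0.08 (-0.18 to 0.02) and 0.01 (-0.09 to 0.11). Neither gene passed in any comparison.

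Tjp3, encoding ZO-3, was at 8.52, 7.65 and 7.78 CPM at 0 h, at 6.73, 7.08 and 6.49 CPM at 12 h and at 7.86, 7.66 and 7.06 CPM at 24 h. All 12 h values lay below all 0 h values. The log2 fold change was -0.24 ± 0.10 at 12 h (adjusted p = 0.0827), so it did not pass.

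Other genes of cell junctions and cell polarity were taken from a list of 30, of which 28 were in the table and 24 were tested. At 12 h against 0 h, 2 of the 24 passed as higher and 5 as lower, where 13.6% and 11.9% of all genes did so. Nectin1, an adhesion molecule that works without calcium, rose by 0.37 ± 0.07 (adjusted p = 0.0012), from 12.6, 13.5 and 13.9 CPM at 0 h to 17.2, 16.2 and 18.2 CPM at 12 h. Amotl2, an angiomotin family scaffold, fell by 0.24 (SE 0.04, adjusted p = 0.000802), Prkci, the atypical protein kinase C of the polarity complex, by 0.19 (SE 0.04, adjusted p = 0.00179), and Ppl, encoding the plakin periplakin, by 0.16 (SE 0.04, adjusted p = 0.00723). The other 3, named after their values were seen, were Pard6b (higher), Evpl and Amotl1 (both lower).

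At 24 h against 0 h, 5 of the 24 genes of this list passed as higher and 1 as lower, where 9.67% and 7.76% of all genes did so. Nectin1 was at 18.4, 19.0 and 19.7 CPM, higher by 0.51 ± 0.07 (adjusted p = 7.3e-05). Pard6b, which binds Prkci, rose by 0.30 ± 0.07 (adjusted p = 0.00402) and Crb3, an apical polarity protein, by 0.41 ± 0.11 (adjusted p = 0.0176), while Patj, a tight junction scaffold, fell by 0.13 (SE 0.04, adjusted p = 0.0167). The others, named after their values were seen, were Tjap1 and Magi3. This count was 3 when any one 0 h library was left out, and 2 when 24 h replicate 1 or 2 was.

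From 12 to 24 h, 3 of the 24 genes rose, where 1.97% of all genes passed as higher and 3.06% as lower. These were Amotl2 by 0.26 ± 0.04 (adjusted p = 0.00324), Crb3 by 0.44 ± 0.11 (adjusted p = 0.0335) and Evpl, encoding envoplakin, by 0.20 ± 0.05 (adjusted p = 0.0459). The count was 1 when any one 12 h library, or 24 h replicate 1 or 2, was left out. No gene of the list passed as lower in edgeR or DESeq2, and 0 had an unadjusted p under 0.05 in that direction. The median log2 fold change of the 24 genes was -0.054 at 12 h and -0.012 at 24 h.

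Transcription factors known to repress or maintain epithelial junction genes, with the splicing factors Esrp1 and Esrp2, formed a list of 18. Of these, 16 were in the table and 12 were tested. At 12 h, 3 of the 12 passed, all higher, and at 24 h again 3, all higher, where 13.6% and 9.67% of all genes passed as higher. Klf4, which activates Cdh1 in other epithelia, was at 18.2, 16.7 and 17.6 CPM at 0 h, at 23, 20.8 and 27.7 CPM at 12 h and at 23.2, 24.1 and 22.1 CPM at 24 h. Every later value was above every 0 h value. Klf4 rose by 0.45 ± 0.09 at 12 h (adjusted p = 0.00112) and by 0.40 ± 0.09 at 24 h (adjusted p = 0.00354).

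Klf5 rose by 0.21 ± 0.05 and 0.20 ± 0.05 (adjusted p = 0.00934 and 0.0176). Ovol1, a repressor that upholds epithelial identity, rose by 0.24 ± 0.08 at 12 h (adjusted p = 0.0398), and Twist2, a repressor of Cdh1, by 0.32 ± 0.10 at 24 h (adjusted p = 0.0348). Of the exonic bases of Ovol1 and Twist2, 22% and 46.5% overlap a gene on the opposite strand. Over the 3 times at once, Ovol1 and Twist2 did not pass the F-test (adjusted p = 0.09 and 0.059). The 12 h count was 2 to 3 when 1 library was left out. It was 2 with no filter on low counts or with only the 2 times compared. The 24 h count was 1 without replicate 2 at 0 h or replicate 1 at 24 h. From 12 to 24 h 0 passed in edgeR or in DESeq2, and 0 had an unadjusted p under 0.05. Among the repressors, Zeb2 was at 36.7 ± 1.92 CPM at 0 h, and Zeb1 and Snai1 were at 0.134 ± 0.188 and 0.22 ± 0.0992 CPM, below the filter.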

How the data were processed

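The 9 libraries were prepared as mRNA libraries from total RNA of MyC-CaP cells. Per the study's methods, adaptors were trimmed with Cutadapt, paired-end reads were aligned to GRCm38.p6 with STAR under a GENCODE annotation, and featureCounts was used for counting. The table that the authors deposited holds unscaled read counts of protein-coding genes. Strand setting and multi-mapping reads were not given in the sources used here, so overlapping or similar genes are uncertain. The time given by the labels set the groups.

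Low genes were removed by filterByExpr, and the rest were scaled by TMM in edgeR 4.0.16 (R 4.3.3). All 9 libraries were fitted with glmQLFit, and each pair of times, and all 3 at once, was compared by glmQLFTest with Benjamini-Hochberg adjustment over 11373 genes. Errors of log2 fold changes are SE, derived from the F value, and intervals are 95%. CPM are given per library or as mean ± SD. Depth was 28467089 to 39239760 counts, and floors cover counting error only. Exon lengths were taken from GENCODE vM21 (GRCm38), and promoter windows from RefSeq (GRCm38.p6).

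The members and lists were chosen with earlier results of these data known. Members were described in full when they define a role (Cdh1, Cdh2, Cdh3, the catenins, Dsp, Dsg2, Pkp2, Pkp3, Cldn3, Cldn4, Cldn7, Tjp1, Tjp3, Ocln, F11r and Cgn, with Dsc2 listed but not analysed here), were called at 1.5-fold, or were among the 5 of smallest p in a direction at an adjusted p of at most 0.05. Some results, among them those of 1 member that the counts include, are not reported here. Genes of the other lists were named when they passed, at most 4 by p in each comparison. Alternatives were DESeq2 1.42.0, other scalings and filters, a fit on the times compared, a replicate block and leaving out each library. The fit was tested on simulated data for 12 h against 0 h with 11311 genes. It found 96 of 100 genes changed 1.5-fold and 99 of 100 changed 2-fold, with 13 false calls. The changed genes were drawn only from those above a minimum mean count. Changes under 1.5-fold, as most members had, were not simulated.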

Additional observations from a re-analysis of the deposited data

How the results depend on the processing

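Of 14 passes of single junction genes, 4 (Cldn9 at 12 and 24 h, Jup and Pkp2 at 12 h) held under all 16 alternatives, and 10 were lost at least once, in each case without 1 library and never by a change of tool, scaling or filter. In all, 31 of 816 values of single genes lost the threshold, 6 gained it and 0 reversed among values that passed in either fit. Cdh24, Cldn1, Cldn10, Cldn18, Marveld1 and Marveld3 were not among the genes followed in this way. Most of the 816 belonged to comparisons that had not passed in the main fit and so could not lose the threshold. Leaving out 1 library gave 4 to 7 members at 12 h, 2 to 6 at 24 h, 0 to 2 from 12 to 24 h and 5 to 9 over the 3 times. It gave 2 to 7 other junction genes at 24 h and 1 to 3 from 12 to 24 h. Factors numbered 2 to 3 at 12 h and 1 to 3 at 24 h. A fold of 1.5 in addition left 1, 1 and 0 members. The cause of the losses was not tested, but each such fit has fewer samples.

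With total counts in place of TMM, calls over all genes were 279 higher and 265 lower from 12 to 24 h, against 224 and 348, and 1381 higher and 1488 lower at 12 h against 0 h, against 1547 and 1349. Under every scaling the median log2 fold change of all genes stayed between -0.014 and 0.016. Same-numbered replicates of different times correlated between -0.074 and 0.13 in their deviations from the mean of each time. Differently numbered ones correlated between -0.13 and 0.12. With 3 libraries per time, these values cannot show whether the numbers pair the samples. With the replicate block, 7 members passed at 12 h, 6 at 24 h and 2 from 12 to 24 h, and 8 differed over the 3 times. The depth limits the 27 genes below the filter, for which no fold was given.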

Other observations

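Replicate 2 at 24 h held more counts in genes below the filter than the other libraries. They came to 11451 counts, or 0.0343% of the library, and 21 genes had at least 5 counts there and none in the other 8 libraries, against 0 to 5 such genes in each of the others. Among the junction genes, Dsg2 (6 counts) was found only there, and Cdh16, encoding kidney cadherin, had 9 of its 14 counts there. Cdh17, encoding intestinal cadherin, had 6 of its 16 counts in replicate 2 at 0 h.

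Krt8, encoding a keratin of simple epithelia that desmosomes anchor, was higher than at 0 h by 0.30 ± 0.09 on the log2 scale after 12 h (adjusted p = 0.0169, edgeR) and by 0.34 ± 0.09 after 24 h (adjusted p = 0.0107). It went from 19.7, 17.6 and 17.3 CPM at 0 h to 22.8, 23.8 and 20.4 CPM and 26.2, 22.2 and 20.8 CPM. All later values lay above those at 0 h. Its filament partner Krt18 was at 0.253 ± 0.0774 CPM at 0 h and 0.378 ± 0.149 CPM at 24 h (SD, n = 3). Krt15, a basal keratin, averaged 187 ± 27.8 CPM in the 0 h libraries, 252 ± 19.1 CPM after 12 h and 161 ± 16.3 CPM after 24 h. The basal markers Krt14, Krt17 and Trp63 were below the filter, with means of 0.191, 0.143 and 0.102 CPM at 0 h. Krt8 and Krt15 were singled out after their values were seen. Krt15 rose at 12 h (log2 0.44 ± 0.08, adjusted p = 0.00115) and fell by 0.65 from 12 to 24 h (SE 0.08, adjusted p = 0.000329).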
